A study of Arabidopsis thaliana with 8 samples.

Results

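Leaves that had finished growing were compared with the shoot apices of young seedlings, the most distant ends of a developmental series of Arabidopsis thaliana. The comparison takes in the 2 mature leaf arrays (ML_35DAS) and the 2 younger apex arrays (Apex_5DAS), 4 of the 8 arrays of the series, and every probe set that is not an array control, 22746 of 22810. Of these, 17837 passed a filter on low values and were tested. The 4 arrays were chosen by tissue and age alone, and no measured value entered the choice of arrays.

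All plants were of the accession Landsberg erecta (Ler), raised in soil at 20 °C with 10 h of light a day, and total RNA was hybridised to ATH1 arrays, the Affymetrix design for this species. The mature leaves were fully expanded and came from plants 35 days after sowing. The younger apices were vegetative, and their age is given as 5 days in the sample titles and as 7 days in the source names. The remaining arrays are 2 of older vegetative apices (Apex_14DAS) and 2 of expanding leaves 1 and 2 (EL_14DAS), both from day 14. No mutant, transgene or treatment was used. The labels do not say how many plants went into an RNA sample or whether the replicates came from separate plants. The p-values below weigh the difference between tissues against the spread between arrays of a tissue, which may leave out the spread between plants. With 2 arrays a tissue their precision is low. An apex is the growing tip with its youngest leaf primordia and whatever stem tissue was taken with it. Differences in cell make-up and differences in RNA per cell cannot be told apart in such bulk samples.

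The shoot apical meristem is a small group of dividing cells that keeps itself going and gives off leaf primordia at its flanks. Cells of a primordium divide, then stop dividing and expand, and the finished leaf lives by photosynthesis and exports sucrose to the growing parts of the plant. Leaves also build chemical and structural defences, among them the glucosinolates of the cabbage family.

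Levels are given as scaled intensities, the deposited values multiplied so that the 8 arrays share a trimmed mean of 133. Each pair of values is replicate 1 followed by replicate 2. Changes are on the scale of log2(scaled intensity + 7.70), mature leaves minus younger apices, so that 1 unit is a 2-fold difference, and the added 7.70 understates the change of genes at low intensity. A change is given with its standard error (SE), and it was called where the p of limma's moderated test, adjusted by Benjamini-Hochberg over all 17837 probe sets, was under 0.05. With 2 arrays against 2, an exact permutation test of a single gene cannot go below a two-sided p of 0.333, so every call rests on the spread shared across probe sets and across all 8 arrays.

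Younger apex replicate 1 stood apart from the other arrays. Its probe set for 25S ribosomal RNA read 193, against 0.961 to 21.3 on the other 7 arrays. The replicates of the younger apex correlated at r = 0.924 over the probe sets tested, against 0.982 for the mature leaves and 0.956 to 0.962 in the other groups. In the younger apex, 12.5% of probe sets differed by more than 2-fold between the replicates, against 2.43% in the mature leaf. Results that rest on this array are given with and without it, and a tissue left with 1 array is assumed to vary like the others. Mature leaf replicate 2 had the highest ratio between the actin control probe sets for the 2 transcript ends. It was 10.1, against 3.39 on mature leaf replicate 1 and 5.89 and 6.33 on the younger apex arrays. The same ratio for GAPDH was 1.24 and 1.25 on the mature leaf arrays, against 1.06 and 0.847 on the younger apex arrays. On the arrays of day 14 it was 0.858 to 1.03, so it was highest on the mature leaf arrays. A difference in RNA quality was not tested.

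Of the 17837 probe sets, 6001 (33.6%) differed between mature leaves and younger apices, 2159 (12.1%) being higher and 3842 (21.5%) lower in mature leaves. The median change of all probe sets was -0.24, so the split between directions depends on how the arrays are put on a common scale. With the array medians left equal, as deposited, 3803 were higher and 2207 lower and the median change was 0.12. With quantile normalization, 2503 were higher and 2656 lower, and the median change was -0.02. The groups did not overlap in 4406 probe sets with mature leaves higher (24.7%) and in 7822 with mature leaves lower (43.9%). No probe set was called in opposite directions by the main scaling and either of the others. Under each of the 3 scalings, 2000 probe sets (11.2%) were higher and 1893 (10.6%) were lower. Among the calls the median size was 1.27 for those higher and 1.31 for those lower, and 145 probe sets were at least 8-fold higher and 208 at least 8-fold lower. Without younger apex replicate 1, 2071 (11.6%) were higher and 3597 (20.2%) lower. Of the main calls, 1691 of those higher and 2913 of those lower were still called.

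Of the probe sets on the array, 13513 are paired with 1 gene and 8730 are unnamed here. The genes described below are those with a symbol in the annotation used, of which 1298 were tested, 166 (12.8%) higher and 294 (22.7%) lower. They are grouped in lists chosen with earlier results of these data known. The counts and medians of lists are therefore descriptions and not independent support. Where few members of a list passed, those outside the rule that chose which genes to name (CYTC6A, LOV1, IAGLU, EXLB1, CYP71B37, CYP51G2, GSTU16, IDH-V, scpl48, scpl20, BGLU40, BGLU42, AT2G44060, AT2G46140 and 4 plastid genes) are named after their values were seen. The largest named rise was that of BCAT4, an aminotransferase that starts the lengthening of methionine for aliphatic glucosinolates. BCAT4 read 2777 and 3018 in mature leaves, against 25.2 and 9.66 in younger apices, a change of 6.92 ± 0.59 (limma adjusted p = 3.6e-05). The largest named fall was that of THI2.2, a thionin, one of the small cysteine-rich defence proteins. THI2.2 read 33.0 and 3.26 in mature leaves and 3439.7 and 3577 in younger apices, a change of -7.38 ± 0.49 (adjusted p = 9.0e-06). Neither gene's groups came near to overlapping. Of the 2 mature leaf values of THI2.2, 3.26 lies below the pseudocount of 7.70 and 33.0 above it.

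Other genes among the 15 largest named rises were ECS1, a secreted protein linked to bacterial resistance (1085 and 1106 in mature leaves, 16.8 and 30.2 in younger apices), RING1, a RING-finger ubiquitin ligase (608 and 675, against 35.5 and 10.4 in younger apices), and CHI, a chitinase (215 and 231, against 2.17 and 10.9 in younger apices). Their changes were 5.18 ± 0.49, 4.53 ± 0.39 and 4.09 ± 0.54. FDH, formate dehydrogenase, read 2458 and 2139 in mature leaves and 212 and 249 in younger apices (change 3.27 ± 0.22), and KELP, a transcriptional coactivator, 307 and 282 in mature leaves and 12.9 and 33.9 in younger apices (change 3.36 ± 0.36). All 5 had limma adjusted p values no higher than 1.2e-04. The ranking of rises and of falls took only called genes whose groups do not overlap. SAL2, a member of the inositol phosphatase family, read 111 and 95.2 in mature leaves and 2.68 and 3.84 in younger apices. Its change was 3.33 ± 0.43 (adjusted p = 3.7e-04), and 2.08 with a pseudocount of 27.6. MSRB6, a methionine sulfoxide reductase, read 517 and 642 in mature leaves and 165 and 31.6 in younger apices. Its younger apex arrays differ widely, the change was 2.83 ± 0.81 (adjusted p = 0.023), and its call was lost under a fit without any one of the mature leaf arrays or without younger apex replicate 2.

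Among the largest named falls, LCR69, a small cysteine-rich protein of the plant defensin kind, read 121 and 93.2 in mature leaves and 5766 and 3631 in younger apices, a change of -5.33 ± 0.31. SBT1.3, a subtilisin-like protease, read 28.8 and 33.5 in mature leaves and 1007 and 832 in younger apices (change -4.57 ± 0.21). GH9B13, a glycosyl hydrolase of the endoglucanase family, read 12.3 and 6.30 in mature leaves and 332 and 354 in younger apices (change -4.39 ± 0.26). ATLP-1, a thaumatin-like protein, changed by -4.03 ± 0.23. BAT1, an acyltransferase that inactivates brassinosteroids, the steroid hormones of growth, changed by -3.88 ± 0.33, and by -2.52 with a pseudocount of 27.6. Each of the 5 was called, the highest limma adjusted p being 3.5e-05. In each both mature leaf arrays lay below both younger apex arrays, which the choice of the largest falls required.

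**Figure D1:**
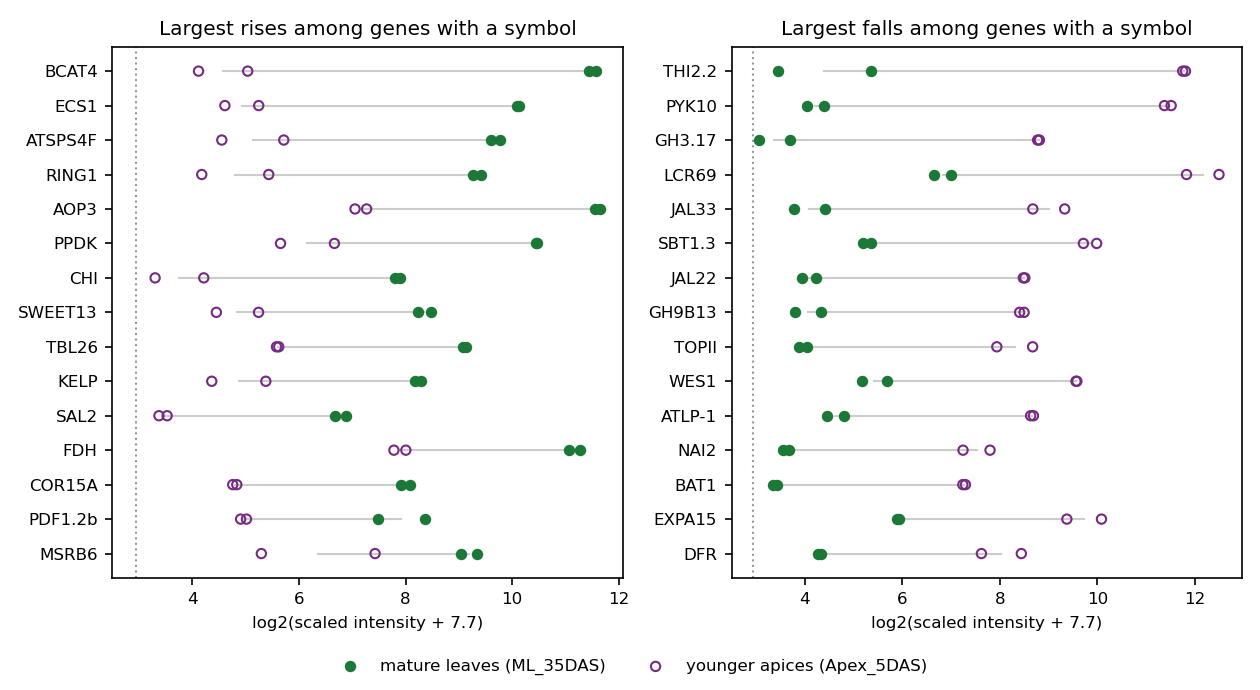
The 15 largest rises (left) and the 15 largest falls (right) among genes with a symbol that passed the test and whose groups do not overlap. The x axis is log2(scaled intensity + 7.70), each point is 1 array (filled, mature leaves; open, younger apices), grey lines join the group means, and the dotted line marks an intensity of 0. In every row the mature leaf points lie wholly to one side of the younger apex points. BCAT4 has the widest gap on the left, and THI2.2 on the right.

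Many genes of cell division fell, and none of those described here rose. Of 25 tested genes of mitosis and chromosome structure, 14 were lower in mature leaves, 13 of them under each of the 3 scalings, none was higher, and the median change was -1.12 relative to that of all probe sets. TOPII, the topoisomerase that untangles replicated chromosomes, read 7.06 and 8.81 in mature leaves and 238 and 401 in younger apices, a change of -4.34 ± 0.37 (limma adjusted p = 3.8e-05). The Aurora kinases drive chromosome segregation and the plane of division. AUR1 read 28.4 and 32.4 in mature leaves and 273 and 266 in younger apices, a change of -2.86 ± 0.23 (adjusted p = 2.9e-05), and AUR2 read 12.1 and 14.9 in mature leaves and 141 and 210.2 in younger apices, a change of -3.09 ± 0.30 (adjusted p = 7.9e-05). The 2 kinases thus fell by similar amounts, on arrays that agreed closely within each group.

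The spindle checkpoint kinase BUBR1 read 2.51 and 1.01 in mature leaves and 47.4 and 53.9 in younger apices. Its change of -2.63 ± 0.37 (limma adjusted p = 6.0e-04) ran from -4.21 with a pseudocount of 1.12 to -1.41 with 27.6, since the mature leaf values are near 0. HTR12, the histone H3 variant of centromeres, read 20.2 and 14.6 in mature leaves and 60.6 and 72.2 in younger apices, a change of -1.57 ± 0.26 (adjusted p = 0.0016). 3xHMG-box2, a chromatin protein that binds mitotic chromosomes, changed by -3.68 ± 0.44. KINESIN-13A is a microtubule motor that also works outside division. It read 356 and 299.6 in mature leaves and 296 and 468 in younger apices and did not pass the test (change -0.19 ± 0.25, adjusted p = 0.59).

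Replication and repair genes fell less uniformly. Of 23 tested, 8 were lower and none higher, 3 of them under each scaling, and the relative median was -0.55. Among all named genes 22.7% were lower. Among all probe sets 10.6% were lower under each scaling, a share near that of 3 in 23. ASF1B, a chaperone that delivers histones to new DNA, read 24.7 and 36.8 in mature leaves and 257 and 144 in younger apices, a change of -2.40 ± 0.40 (limma adjusted p = 0.0016). TOP3A, the topoisomerase that resolves crossed strands in repair, read 8.50 and 20.8 in mature leaves and 71.8 and 131 in younger apices, a change of -2.29 ± 0.34 (adjusted p = 9.4e-04). PRL (PROLIFERA), the MCM7 subunit of the replicative helicase, read 74.0 and 39.5 in mature leaves and 260.4 and 455 in younger apices, a change of -2.51 ± 0.33 (adjusted p = 4.5e-04). In all 3 the mature leaf arrays lay below the younger apex arrays, as in 43.9% of all probe sets. Without one or the other mature leaf array 3 genes of the list were lower, and without younger apex replicate 1 there were 12. GYRB3 did not pass (change -0.36 ± 0.24).

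Of 7 histone genes, 3 were lower and none higher, and 2 of the 3 were lower under each scaling. The H2B gene HTB1 read 137 and 168 in mature leaves, against 509 and 514 in younger apices, a change of -1.70 ± 0.21 (limma adjusted p = 2.7e-04). Tubulins form the microtubules of the spindle and of the cell cortex. Of 7, 6 were lower and none higher, and 3 held under each scaling. TUB1 read 21.1 and 24.1 in mature leaves and 151 and 194 in younger apices, a change of -2.56 ± 0.25. TUB7 read 91.5 and 128 in mature leaves and 486 and 552 in younger apices, a change of -2.18 ± 0.28. TUA6, an alpha-tubulin, remained at high intensity in both, 1246 and 1176 in mature leaves and 3154 and 2499 in younger apices, and its change was -1.21 ± 0.20 (adjusted p = 0.0015), or -0.80 with array medians as deposited. Of 9 genes of the nucleolus and RNA polymerase I, which make ribosomes, 4 (RRP41L, DIM1A, PRH75 and YAO) were lower and none higher. Only 1 of the 4, RRP41L, was lower under each scaling, and 1 in 9 is near the 10.6% of all probe sets. Leaving out younger apex replicate 1 took the tubulin count to 3 and left the nucleolar count at 4. Without mature leaf replicate 1 the counts were 3 and 2, and without replicate 2 they were 4 and 1.

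Meristem genes were lower in mature leaves where they could be tested. The classical meristem genes STM, WUS and KNAT1 have no named probe set here, CLV3 did not pass the filter on low values, and of the meristem list ULT1 and LAS were tested. ULT1, which limits the size of the meristem, read 15.7 and 20.3 in mature leaves and 132 and 160 in younger apices, a change of -2.58 ± 0.26 (limma adjusted p = 9.5e-05). LAS, which is needed to form axillary meristems, read 14.3 and 3.42 in mature leaves and 48.7 and 55.6 in younger apices, a change of -1.93 ± 0.37 (adjusted p = 0.0036), or -1.14 with a pseudocount of 27.6. Both mature leaf arrays lay below both younger apex arrays for each gene, as in 43.9% of all probe sets. At day 14 the 2 genes separated leaf from apex little. Their median log2 level was 5.60 and 5.95 in expanding leaves and 6.09 and 6.09 in older apices.

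Of 29 tested regulators of organ identity and growth, 12 were lower, 9 of them under each scaling, 2 were higher, and the relative median was -0.67 (-0.22 without younger apex replicate 1). The zinc-finger genes JAG and NUB promote the growth of lateral organs. JAG read 4.33 and 2.78 in mature leaves and 46.4 and 46.7 in younger apices (change -2.27 ± 0.30), and NUB read 3.85 and 8.44 in mature leaves and 62.9 and 79.2 in younger apices (change -2.52 ± 0.33). With a pseudocount of 27.6 the changes were -1.25 and -1.55. SPT, a bHLH factor that restrains leaf size, read 9.52 and 13.9 in mature leaves and 50.4 and 66.8 in younger apices (change -1.77 ± 0.30, and -1.13 with the larger pseudocount). AN, which shapes leaf cells, was at 116 and 104 in mature leaves and 267 and 333 in younger apices (change -1.38 ± 0.22). The adjusted p values of these 4 were at most 0.0019 in limma.

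The 2 members that were higher were ARL, which promotes the expansion of cells, and LOV1, whose locus AT1G10920 encodes a disease-resistance protein and not a growth regulator. ARL read 386 and 359.9 in mature leaves and 148 and 128 in younger apices, a rise of 1.39 ± 0.22 (limma adjusted p = 0.0011). Leaf polarity genes set the upper and lower faces of the leaf. YAB3, of the lower side, read 146 and 144 in mature leaves and 341 and 385 in younger apices, a change of -1.28 ± 0.19 (adjusted p = 9.8e-04). PHV, of the upper side, read 108 and 94.8 in mature leaves and 153 and 308 in younger apices. Its change of -1.05 ± 0.32 (adjusted p = 0.028) lost its call with array medians as deposited, and without younger apex replicate 2 or either mature leaf array. YAB5 (90.6 and 83 in mature leaves, 71.2 and 53.3 in younger apices) and AGO7, which makes the small RNAs that mark the upper side (29.0 and 33.1 in mature leaves, 50.8 and 19.9 in younger apices), did not pass, with changes of 0.44 ± 0.25 and -0.06 ± 0.43.

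Stomatal and trichome genes changed both ways, 3 of 8 higher and 2 lower, with 1 higher without one or the other mature leaf array. SPCH, the factor that starts the stomatal lineage, read 11.9 and 5.50 in mature leaves and 58.9 and 92.3 in younger apices, a change of -2.34 ± 0.29 (limma adjusted p = 2.9e-04), or -1.49 with a pseudocount of 27.6. STOMAGEN, the mesophyll peptide that promotes stomata, read 356 and 276 in mature leaves and 233 and 138 in younger apices, and its rise of 0.78 ± 0.27 (adjusted p = 0.049) was lost with quantile normalization, among other settings. TRY, an inhibitor of trichome fate, rose, with 205 and 180.2 in mature leaves and 49.6 and 33.7 in younger apices, a change of 2.04 ± 0.26 (adjusted p = 3.6e-04). SIM, the inhibitor of cyclin-dependent kinases that stops division in trichomes, read 32.2 and 22.6 in mature leaves and 97.2 and 104 in younger apices, a change of -1.64 ± 0.30 (adjusted p = 0.0028). GIS, which promotes trichomes, read 37.5 and 50.6 in mature leaves and 10.7 and 21.8 in younger apices. Its change was 1.14 ± 0.32 (adjusted p = 0.022), 0.71 with a pseudocount of 27.6, and 0.80 and not called without younger apex replicate 1 (adjusted p = 0.08).

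Of the genes of phase change and flowering, 4 were tested. SMZ, an AP2-type repressor of flowering, read 14.2 and 10.8 in mature leaves and 150.2 and 322 in younger apices, a change of -3.5 ± 0.34 (limma adjusted p = 7.6e-05). Its relative SNZ read 228 and 261 in mature leaves and 99.3 and 229 in younger apices and did not pass (change 0.66 ± 0.33, adjusted p = 0.15). FD, the apical partner of the flowering signal FT, read 5.13 and 2.99 in mature leaves and 28.2 and 40.9 in younger apices. Its change of -1.84 ± 0.32 (adjusted p = 0.0022) ran from -2.79 with a pseudocount of 1.12 to -0.97 with 27.6. AGL24, a MADS-box promoter of flowering, read 30.8 and 36.8 in mature leaves and 3.32 and 9.50 in younger apices, a change of 1.59 ± 0.36 (adjusted p = 0.0084). The call of AGL24 was lost without one or the other mature leaf array, and its change was 0.86 with the larger pseudocount.

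Part of the auxin genes fell, and those that fell furthest were enzymes that attach amino acids to the hormone. Of 12 tested, 5 were lower, each under all 3 scalings, and 1, IAGLU, was higher. GH3.17 read 5.24 and 0.641 in mature leaves and 430.5 and 442 in younger apices, a change of -5.42 ± 0.46 (limma adjusted p = 3.5e-05). WES1 (GH3.5) read 28.4 and 43.6 in mature leaves and 748 and 758 in younger apices, a change of -4.14 ± 0.26 (adjusted p = 7.1e-06). GH3.3 read 14.7 and 17.7 in mature leaves and 184 and 161 in younger apices, a change of -2.91 ± 0.26 (adjusted p = 5.4e-05). All 3 GH3 enzymes were thus far lower on both mature leaf arrays. YUC4, an auxin synthesis enzyme, read 3.42 and 0.588 in mature leaves and 58.4 and 60.5 in younger apices. Its change of -2.81 ± 0.55 (adjusted p = 0.004) ran from -4.44 to -1.56 over the smaller and larger pseudocounts. IAA18, a repressor of auxin response, did not pass (change 0.11 ± 0.28, adjusted p = 0.79). Among cytokinin genes, the response regulator RR16 rose, with 174 and 164 in mature leaves and 53.1 and 18.8 in younger apices (change 2.14 ± 0.37, adjusted p = 0.002).

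Part of the wall-loosening genes were lower in mature leaves. Of 15 expansins, which let walls yield during growth, 7 were lower, 5 of them under each scaling, 1, EXLB1, was higher, and the relative median was -0.96. EXPA15 read 53.1 and 51.7 in mature leaves and 656 and 1079 in younger apices, a change of -3.82 ± 0.27 (limma adjusted p = 1.1e-05). EXPB3 read 84.7 and 84.0 in mature leaves and 1182 and 1197 in younger apices, a change of -3.70 ± 0.24 (adjusted p = 7.1e-06). EXPA8 read 998 and 1099 in mature leaves and 1885 and 1345 in younger apices and did not pass (change -0.60 ± 0.49, adjusted p = 0.36). The fall was therefore uneven within the family. Without younger apex replicate 1, 4 expansins were lower and 0 higher.

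Xyloglucan enzymes cut and rejoin the tethers between cellulose fibres. Of 7, 4 were lower and 1 higher, and 2 of the 4 were lower under each scaling. Without younger apex replicate 2 or mature leaf replicate 2 the count lower was 2, and without mature leaf replicate 1 it was 1. XTH16 read 53.4 and 65.0 in mature leaves and 579.8 and 249 in younger apices, a change of -2.54 ± 0.34 (limma adjusted p = 4.6e-04). The member that rose, EXGT-A3, read 1193 and 1162 in mature leaves and 375 and 165 in younger apices, a change of 2.21 ± 0.34 (adjusted p = 0.001). The TBL proteins acetylate wall polymers, and of 18 tested 6 were lower and 1 higher, 4 of those lower under each scaling. TBL39 read 8.93 and 13.7 in mature leaves and 173 and 139 in younger apices (change -3.11 ± 0.26), while TBL26 read 529.6 and 553 in mature leaves and 41.5 and 40.1 in younger apices (change 3.5 ± 0.25). The 2 relatives thus went opposite ways, with adjusted p values of 3.3e-05 and 1.4e-05. The growth-restraining peptide genes RALFL32 and RALFL34 changed by -2.07 ± 0.30 and -2.07 ± 0.31, 2 of 6 RALF genes tested, and no other passed.

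**Figure D2:**
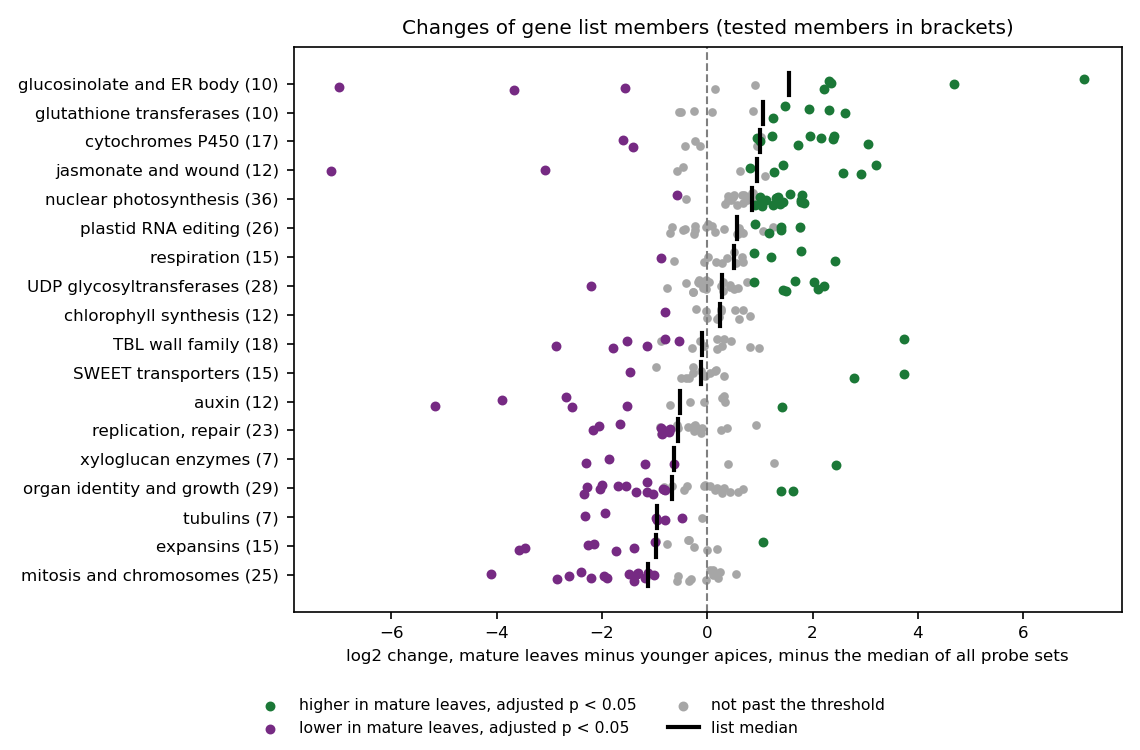
Each point is a tested gene of the list named at the left, with the number tested in brackets. The x axis is the log2 change, mature leaves minus younger apices, minus the median change of all probe sets. Green points were called higher, purple points lower, grey points did not pass, and bars mark list medians. Among the lists drawn, the lowest medians are those of mitosis (-1.12), expansins (-0.96) and tubulins (-0.95). The highest are those of the joint glucosinolate and ER body list (1.56), glutathione transferases (1.06) and P450 enzymes (1.01). That joint list mixes sets that went opposite ways. Taken alone, aliphatic glucosinolate genes have a median of 2.33 and ER body genes one of -3.67. Most lists hold genes on both sides of 0.

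Part of the nuclear genes of photosynthesis were higher in mature leaves, by modest amounts. Of 36 tested genes of photosystems, light harvesting, the Calvin cycle and the thylakoid, 16 were higher, 14 of them under each scaling, and 1 was lower (CYTC6A). The relative median was 0.86, but 0.41 with quantile normalization and 0.55 without younger apex replicate 2. Without younger apex replicate 1, 28 were higher and none lower, and the relative median was 1.19. Without one or the other mature leaf array 6 were higher and none lower. Median intensity over the list was 1277 and 1507 on the mature leaf arrays, against 891 and 599.6 on the younger apex arrays, so that younger apex replicate 1 lay between its partner and the leaves.

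NdhL, a subunit of the chloroplast NDH complex of cyclic electron flow, read 1259 and 1335 in mature leaves and 577 and 334 in younger apices, a change of 1.54 ± 0.26 (limma adjusted p = 0.0016). CaS, a calcium-sensing thylakoid protein, read 2251 and 2238 in mature leaves and 885 and 661 in younger apices, a change of 1.54 ± 0.20 (adjusted p = 4.3e-04). In both genes the mature leaf arrays lay above the younger apex arrays, as in 24.7% of all probe sets. PIFI, an accessory factor of the NDH complex, read 2597 and 2013 in mature leaves and 1075 and 515 in younger apices, a change of 1.61 ± 0.35 (adjusted p = 0.0066), and LHCB4.3, a minor antenna protein of photosystem II, 791 and 764 in mature leaves and 364 and 181 in younger apices, a change of 1.57 ± 0.37 (adjusted p = 0.0099). Both calls were lost without mature leaf replicate 1, and that of LHCB4.3 also without replicate 2.

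Several photosynthesis genes at high intensity did not pass the test. LHCB4.1, another minor antenna protein, read 8935 and 8092 in mature leaves and 9731 and 5588 in younger apices, PSAE-1 of photosystem I 5895 and 5915 in mature leaves and 6746 and 4176 in younger apices, and RCA, the activase of Rubisco, 8714 and 8008 in mature leaves and 7089 and 4147 in younger apices. Replicate 1 of the younger apex reached or passed the mature leaf level in the first 2, and none of the 3 was called (changes 0.21 ± 0.27, 0.15 ± 0.24 and 0.62 ± 0.25). Without that array their changes were 0.61, 0.50 and 1.01, each called (limma adjusted p = 0.033, 0.031 and 0.0015). The Calvin cycle enzymes SBPASE and PRK rose by 0.78 ± 0.21 and 0.67 ± 0.22. Neither call held with quantile normalization, in a fit of the 4 arrays alone or without one or the other mature leaf array, and with array medians as deposited the rises were 1.19 and 1.08.

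Transcripts of the plastid genome itself turned on 1 array. All 41 tested plastid-encoded photosynthesis genes, and all 17 plastid genes of transcription and translation, were highest on younger apex replicate 1. The median intensity of the photosynthesis genes was 24.3 and 33.3 on the mature leaf arrays and 282 and 25 on the younger apex arrays. That of the transcription and translation genes was 13.7 and 9.03 on the mature leaf arrays and 116 and 15.2 on the younger apex arrays. The fit with that array called none of the 41 in either direction, with a relative median of -0.63. Without it the relative median was 0.75 and 4 were higher and none lower, namely psbA, atpB, atpE and ndhJ. psbA, which encodes the D1 protein of photosystem II, read 488 and 281 in mature leaves and 1035 and 65.6 in younger apices, and its change was 0.45 ± 0.90 with the array and 2.37 without it (limma adjusted p = 0.0015). ndhC, of the NDH complex, read 493 and 448 in mature leaves and 1265 and 328 in younger apices (change -0.45 ± 0.58, not called). Without the other younger apex array, 31 of the 41 and 14 of the 17 were lower and none of either list was higher. In the transcription and translation list, rpoC1 and rpl20 were lower with all arrays, and neither was without younger apex replicate 1 or without one or the other mature leaf array. The 25S rRNA signal moved with these genes on the same array, and its part in their level was not tested.

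**Figure D3:**
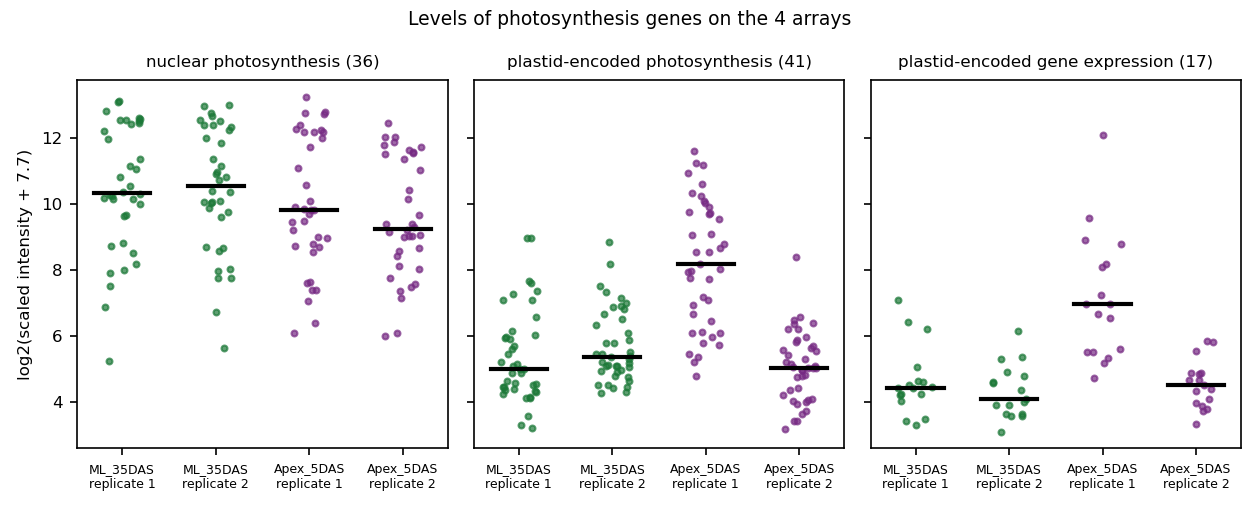
Log2(scaled intensity + 7.70) of each tested gene on the 4 arrays compared, for nuclear photosynthesis genes (left), plastid-encoded photosynthesis genes (middle) and plastid-encoded genes of transcription and translation (right). Each point is a gene and each bar a median. Plastid-encoded genes lie far higher on younger apex replicate 1 than on the other 3 arrays, whereas of the 36 nuclear genes 20 are highest on mature leaf replicate 1, 10 on mature leaf replicate 2 and 6 on younger apex replicate 1.

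Of 26 tested plastid RNA editing and biogenesis genes, 5 were higher (CRR21, FTSZ2-2, Cpn60beta4, CRR42 and FUG1) and none lower, against the 12.8% and 22.7% of all named genes. The relative median was 0.57. Without younger apex replicate 1 it was 0.29, with 6 higher and 2 lower. Without younger apex replicate 2, 9 were higher and 1 lower, and without one or the other mature leaf array 3 were higher. CRR21, an editing factor of a plastid ndh transcript, read 180.2 and 174 in mature leaves and 48.6 and 66.2 in younger apices, a change of 1.52 ± 0.25 (limma adjusted p = 0.0015). FTSZ2-2, of the chloroplast division ring, read 535 and 451 in mature leaves and 208 and 220.1 in younger apices, a change of 1.17 ± 0.20 (adjusted p = 0.0019). Of 12 genes of tetrapyrrole and chlorophyll synthesis, 1 was lower and none higher. With array medians as deposited 3 were higher and none lower, and without younger apex replicate 1, 2 were higher and 1 lower. The gene called, PORB, makes chlorophyll precursors in the light, and read 735 and 904 in mature leaves and 2179.8 and 1312 in younger apices (change -1.05 ± 0.30, adjusted p = 0.022). It was not called without younger apex replicate 1 (change -0.68, adjusted p = 0.092), without one or the other mature leaf array or with array medians as deposited.

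Glucosinolate synthesis and the ER body system went in opposite directions. All 5 called genes of aliphatic glucosinolates, of 6 tested, were higher under each scaling. AOP3, a dioxygenase that modifies glucosinolate side chains, read 3214 and 3009 in mature leaves and 125 and 147 in younger apices, a change of 4.45 ± 0.33 (limma adjusted p = 1.7e-05). GTR2, a glucosinolate transporter, read 350.2 and 332 in mature leaves and 58.4 and 90.6 in younger apices, a change of 2.11 ± 0.30 (adjusted p = 6.4e-04). The other 2, GSTU20 and UGT74B1, which act in glucosinolate synthesis, changed by 2.08 ± 0.36 and 1.97 ± 0.36. With BCAT4, these genes were higher on both mature leaf arrays than on either younger apex array, as were 24.7% of all probe sets.

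ER bodies are compartments of the endoplasmic reticulum that store beta-glucosidase, and all 3 tested genes were lower. PYK10, the beta-glucosidase itself, read 8.72 and 13.4 in mature leaves and 2652 and 2917 in younger apices, a change of -7.23 ± 0.27 (limma adjusted p = 5.6e-07). NAI2, needed to form ER bodies, read 3.96 and 5.13 in mature leaves and 144 and 215 in younger apices, a change of -3.91 ± 0.27 (adjusted p = 9.8e-06). Their regulator NAI1, a bHLH factor, read 4.33 and 13.2 in mature leaves and 46.3 and 49.0 in younger apices, a change of -1.80 ± 0.35 (adjusted p = 0.0035), or -1.06 with a pseudocount of 27.6. The jacalin-related lectins, a family known to form complexes with PYK10, include 2 of the 15 largest named falls. JAL33 read 13.6 and 5.98 in mature leaves and 636 and 402 in younger apices (change -4.91 ± 0.31), and JAL22 7.65 and 11.0 in mature leaves and 349.9 and 358 in younger apices (change -4.42 ± 0.30). Among all 13 tested beta-glucosidases, 4 were lower (PYK10, BGLU46, BGLU15 and BGLU42) and 2 higher (BGLU33, with a change of 1.73 ± 0.29, and BGLU40).

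Some genes of sucrose making and export were among the large rises. Of 10 tested genes of sucrose and starch, 2 were higher and 1 lower, against 12.8% and 22.7% of all named genes. The relative median of that list was 0.17, and -0.096 with quantile normalization. ATSPS4F, a sucrose phosphate synthase, read 767 and 869 in mature leaves and 44.9 and 15.8 in younger apices, a change of 4.55 ± 0.47 (limma adjusted p = 1.1e-04). SWEET11, a sucrose exporter that feeds the phloem, read 2336 and 2302 in mature leaves and 802 and 186 in younger apices. The younger apex arrays differ widely for SWEET11, and its change of 2.55 ± 0.51 (adjusted p = 0.0044) was 1.52 without younger apex replicate 2. Its relative SWEET13 read 293 and 347 in mature leaves and 30.2 and 14.2 in younger apices, a change of 3.5 ± 0.35 (adjusted p = 8.9e-05).

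The other SWEET genes did not follow, since of 15 tested 2 were higher, 1 lower and 12 did not pass (3 lower without younger apex replicate 2). The relative median of the SWEET list was -0.12, and 2 in 15 higher is near the 12.8% of all named genes. The SWEET gene that was lower, SWEET10, read 0.909 and 0.534 in mature leaves and 22.2 and 17.1 in younger apices. At these intensities its change of -1.70 ± 0.37 ran from -3.49 to -0.74 over the pseudocounts. DPE1, the plastid enzyme that rearranges the maltose chains of starch breakdown, read 27.0 and 28.7 in mature leaves and 139.7 and 106 in younger apices, a change of -1.86 ± 0.30 (limma adjusted p = 0.0014). PPDK, which interconverts pyruvate and phosphoenolpyruvate, read 1409 and 1394 in mature leaves and 42.7 and 93.8 in younger apices, a change of 4.3 ± 0.33 (adjusted p = 2.1e-05). PPDK was thus low on both apex arrays and high on both leaf arrays.

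Jasmonate and wound genes changed both ways, 6 of 12 higher and 2 lower, with 3 higher without mature leaf replicate 2. PDF1.2, a defensin often used as a marker of jasmonate and ethylene signalling, read 97.2 and 95.2 in mature leaves and 14.6 and 11.2 in younger apices, a change of 2.34 ± 0.31 (limma adjusted p = 4.3e-04). PDF1.2b changed by 2.96 ± 0.35, on a probe set that it shares with a near-identical gene. JMT, which methylates jasmonate, read 82.2 and 90.12 in mature leaves and 18.7 and 0.373 in younger apices, a change of 2.68 ± 0.50 (adjusted p = 0.003), or 1.66 with a pseudocount of 27.6. The 2 that were lower were THI2.2, given above, and the jasmonate-regulated gene JRG21, which read 3.1 and 5.72 in mature leaves and 94.6 and 132 in younger apices (change -3.31 ± 0.34, and -2.13 with the larger pseudocount). STZ, a zinc-finger repressor of stress responses, did not pass (change -0.69 ± 0.35, adjusted p = 0.15).

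Families of detoxifying and tailoring enzymes had calls in both directions, apart from the glutathione transferases, of which none was lower. Among all named genes 12.8% were higher and 22.7% lower. Of 17 tested cytochromes P450, 9 were higher, each under all 3 scalings, and 2 lower (CYP71B37 and CYP51G2). Without one or the other mature leaf array, 5 P450 genes were higher. CYP71B26 read 120 and 186 in mature leaves and 16.2 and 13.0 in younger apices (change 2.82 ± 0.50), and CYP78A9, of a subfamily that promotes organ growth, 145 and 147 in mature leaves and 31.6 and 23.1 in younger apices (change 2.14 ± 0.37). Of 10 glutathione transferases, 5 were higher and none lower, and all 5 (GSTL3, GSTU20, GSTU27, GSTU18 and GSTU16) held under each scaling, while without one or the other mature leaf array 3 were higher. GSTL3 read 2486 and 2095 in mature leaves and 361 and 512 in younger apices, a change of 2.39 ± 0.23 (limma adjusted p = 6.7e-05). Of 28 UDP glycosyltransferases, 7 were higher and 1 lower, with 20 that did not pass, and the relative median was 0.28. Without mature leaf replicate 1 the count higher was 4, and without replicate 2 it was 3. UGT76E11 was among those higher (change 1.79 ± 0.35) and UGT76E2 was the one lower (change -2.44 ± 0.46, from -3.93 to -1.30 over the pseudocounts). In the serine carboxypeptidase-like family, scpl46 was higher (change 2.53 ± 0.23) and scpl25 lower (change -2.45 ± 0.19), 3 of 23 being higher (with scpl48 and scpl20) and 8 lower. The share higher is near that of all named genes. Of the 8, 3 were lower under each scaling, and 3 in 23 is near the 10.6% of all probe sets. The relative median of this family was 0.18. With 1 of the 4 arrays left out, the count lower was 2 (without mature leaf replicate 1), 4 (without mature leaf replicate 2 or younger apex replicate 1) or 7.

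Of 3 tested genes of flavonoids and anthocyanins, 2 were lower in mature leaves, both under each scaling, and none was higher. DFR, the reductase that commits flavonoids to anthocyanins, read 11.6 and 12.4 in mature leaves and 189 and 339.9 in younger apices, a change of -3.73 ± 0.58 (limma adjusted p = 0.0011). UF3GT, an anthocyanin glycosyltransferase, read 7.54 and 14.3 in mature leaves and 96.4 and 92.8 in younger apices, a change of -2.48 ± 0.57 (adjusted p = 0.0087), which was not called without mature leaf replicate 1. Both mature leaf values of each gene lay below both younger apex values, as in 43.9% of all probe sets. UGT78D2, which glycosylates flavonols as well, did not pass (change -0.25 ± 0.31).

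Genes of vacuolar processing and senescence passed the test about as often as all named genes, of which 12.8% were higher and 22.7% lower. Of 10 tested genes of vacuolar processing and senescence, 1 was higher (YLS5) and 2 were lower, and the relative median was 0.58 (0.25 without younger apex replicate 1). YLS5 was not called without mature leaf replicate 1. WRKY22, a factor linked to dark-induced senescence and defence, read 26.0 and 27.3 in mature leaves and 91.0 and 83.1 in younger apices, a change of -1.46 ± 0.26 (limma adjusted p = 0.0023). SAG29 read 7.59 and 8.17 in mature leaves and 30.6 and 75.3 in younger apices (change -1.85 ± 0.52), a call lost with quantile normalization and without younger apex replicate 2 or either mature leaf array. Of 9 autophagy genes of the ATG8 family, which coat the forming vesicle, 1 was higher (APG8H, change 0.87 ± 0.20) and none lower, with a relative median of 0.29, and the call of APG8H was lost without mature leaf replicate 1. GAMMA-VPE, a vacuolar processing enzyme, did not pass (change 0.43 ± 0.30).

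Cold and dehydration genes were mixed, 3 of 10 higher (COR15A, AT1G54410 and AT2G44060) and 4 lower (DI21, LEA4-5, COR47 and AT2G46140), with 1 higher without younger apex replicate 1 or either mature leaf array. Under each scaling 2 of the 10 were higher and 2 lower. Among all named genes 12.8% were higher and 22.7% lower. The dehydrin COR47 read 478 and 393 in mature leaves and 958 and 1244 in younger apices, a change of -1.32 ± 0.25 (limma adjusted p = 0.0032). COR15A, a cold-induced chloroplast protein, read 262 and 234 in mature leaves and 20.8 and 19.4 in younger apices, and its large change of 3.2 ± 1.07 had an adjusted p of 0.042 and was not called without any one of the 4 arrays compared. Of 15 tested genes of respiration, 4 were higher (NDB2, CYTC-2, NDC1 and IDH-V) and 1 lower (NDB1), with 2 higher without mature leaf replicate 1 and none lower without mature leaf replicate 2. NDB2, an alternative NADH dehydrogenase of mitochondria, read 271 and 260.1 in mature leaves and 55.1 and 49.4 in younger apices, a change of 2.19 ± 0.25 (adjusted p = 2.1e-04). CYTC-2, a cytochrome c, read 487 and 555 in mature leaves and 159.9 and 190.5 in younger apices, a change of 1.53 ± 0.27 (adjusted p = 0.0022). The NRT1/PTR transporters of nitrate, peptides and hormones also differed among themselves, with NPF3.1 (AT1G68570) at 811 and 891 in mature leaves and 199.9 and 164 in younger apices (change 2.18 ± 0.20) and NPF4.4 (AT1G33440) at 13.5 and 20.3 in mature leaves and 177 and 189.7 in younger apices (change -2.97 ± 0.30).

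Markers of cell types that either sample could hold besides leaf and meristem cells were few in the annotation. The phloem gene OPS read 1.71 and 9.19 in mature leaves and 47.0 and 57.1 in younger apices, a change of -2.24 ± 0.45 (limma adjusted p = 0.0045), or -1.28 with a pseudocount of 27.6, and was not called without mature leaf replicate 1. The xylem wall gene GUT2 read 44.6 and 46.3 in mature leaves and 117 and 81.4 in younger apices, a change of -0.99 ± 0.25 (adjusted p = 0.014) that was lost with array medians as deposited, with quantile normalization and without one or the other mature leaf array. Of 2 root genes, EXPA18 was lower, with 8.34 and 3.04 in mature leaves and 46.8 and 22.6 in younger apices (change -1.63 ± 0.40), and not called without younger apex replicate 1 or mature leaf replicate 2. Of 7 pollen and ovule genes, PLIM2a was higher (32.7 and 22.1 in mature leaves, 8.44 and 1.49 in younger apices) and SETH2 lower (70.7 and 73.6 in mature leaves, 113 and 170.2 in younger apices), and 5 did not pass. Both calls were lost without one or the other mature leaf array. No named guard cell or flower gene was measured, and the part of these cell types in the changes above was not tested. The clock gene GI, which tracks time of day, read 55.6 and 58.5 in mature leaves and 282 and 152 in younger apices and fell short of the threshold (change -1.73 ± 0.62, adjusted p = 0.054). Harvest times are not given in the labels.

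The tissues of day 14 show how far the 2 ends are joined by intermediates. Among the 2159 probe sets higher in mature leaves, the mean of the expanding leaves lay between the ends in 71.7% and that of the older apices in 61.2%. The means rose in the order younger apex, older apex, expanding leaf, mature leaf in 642 of them (29.7%). Among the 3842 lower probe sets the expanding leaves lay between in 76.2% and the older apices in 59.4%, and the means fell in that order in 1276 (33.2%). These shares are descriptions, since the ends define the calls and no test was made of the intermediates.

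Named genes followed several courses. ULT1 and JAG stepped down from one tissue to the next, ULT1 reading 132 and 160 in younger apices, 98.3 and 129 in older apices, 72.7 and 95.7 in expanding leaves and 15.7 and 20.3 in mature leaves. PYK10 did likewise, with 2652 and 2917 in younger apices, 1418 and 2204 in older apices, 173 and 244 in expanding leaves and 8.72 and 13.4 in mature leaves. TOPII and AUR1 had higher means in older than in younger apices, TOPII reading 238 and 401 in younger apices, 572 and 409 in older apices, 91.5 and 201 in expanding leaves and 7.06 and 8.81 in mature leaves.

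SPCH was highest in the day 14 tissues, with 58.9 and 92.3 in younger apices, 219 and 209 in older apices, 179 and 199 in expanding leaves and 11.9 and 5.50 in mature leaves. BCAT4 ran in zigzag, with 25.2 and 9.66 in younger apices, 1806 and 764 in older apices, 45.9 and 6.24 in expanding leaves and 2777 and 3018 in mature leaves, so that older apices and mature leaves were high and the other tissues low. AOP3 and AGL24 showed the same alternation. PPDK was low in every tissue but the mature leaf, at 42.7 and 93.8 in younger apices, 64.4 and 43.1 in older apices, 28.8 and 22.3 in expanding leaves and 1409 and 1394 in mature leaves. ATSPS4F was already higher in expanding leaves (129 and 91.4) than in either apex (44.9 and 15.8 in younger, 15.8 and 1.23 in older), below the 767 and 869 of mature leaves.

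**Figure D4:**
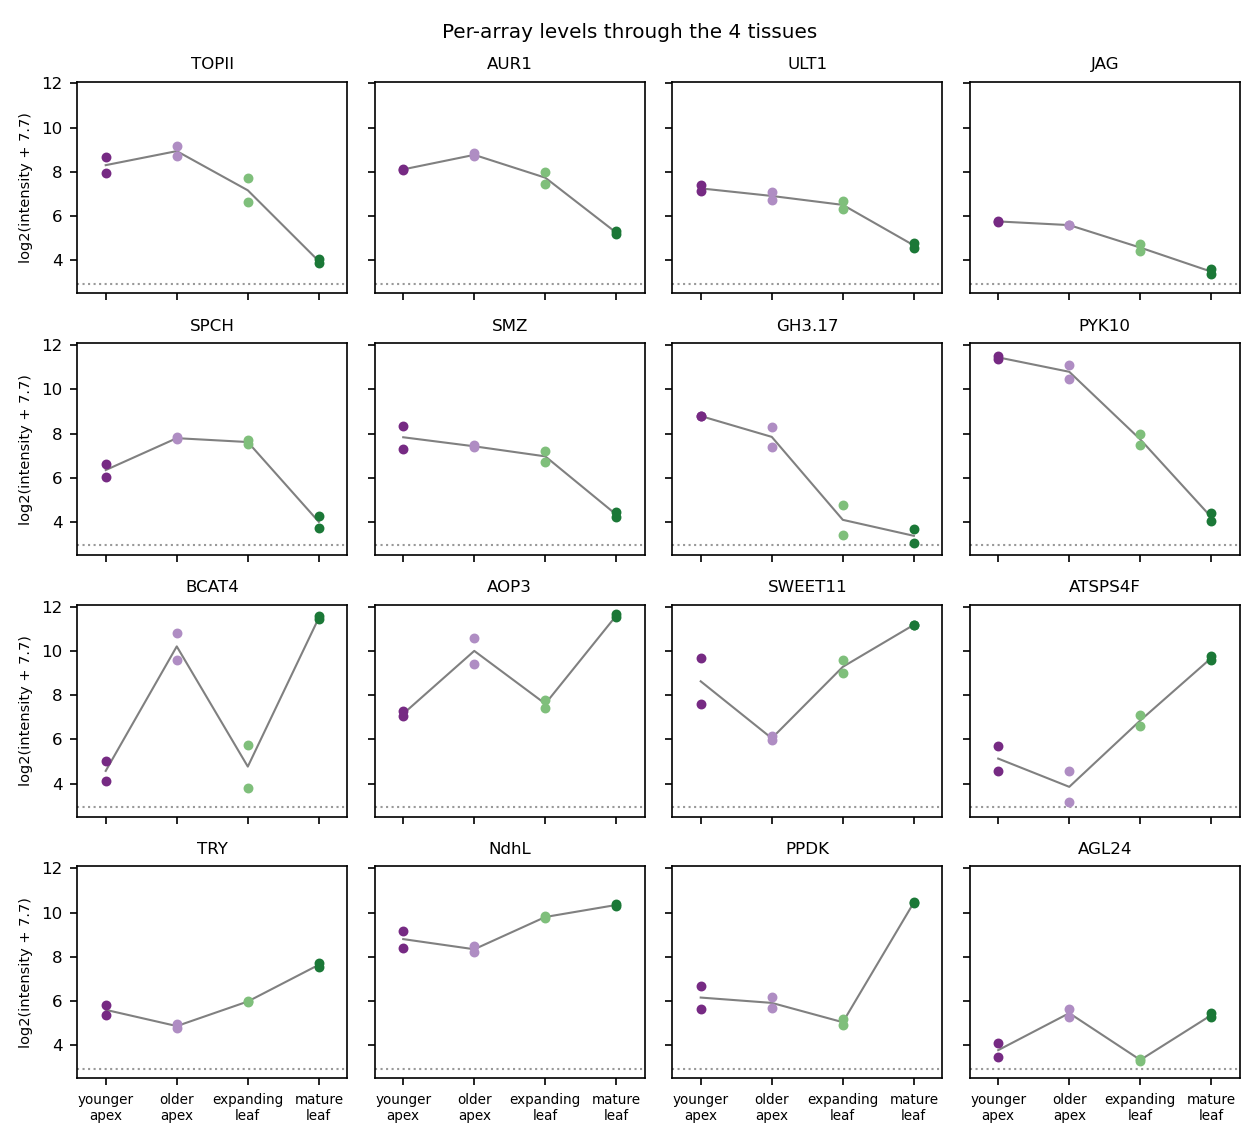
Log2(scaled intensity + 7.70) of 16 named genes in the 4 tissues, ordered from younger apex to mature leaf. Each point is 1 array, lines join the tissue means, and the dotted line marks an intensity of 0. ULT1, JAG and PYK10 step down, SPCH peaks at day 14, BCAT4 and AOP3 alternate, and PPDK is high in mature leaves alone among the 4 tissues.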

How the data were processed

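The values are intensities per probe set as deposited by the authors in the series matrix, made with MAS5 per the submitters' processing notes. Each deposited column has a median of 50, and the step that set it is not given in the sources used here. Detection calls were not used here, so depth is shown only by the level of a value. Trimmed means (2% off each end) of the deposited columns ran from 117 to 175, so each array was scaled to a common trimmed mean of 133 with factors of 0.757 to 1.14.

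Probe sets over the 30th percentile on at least 2 of the 8 arrays were tested, on log2(intensity + 7.70), the 20th percentile being the pseudocount. All 8 arrays entered 1 fit with 4 groups in limma 3.58.1 (R 4.3.3, eBayes with trend, two-sided), tested on simulated data. The contrast was mature leaves minus younger apices, with Benjamini-Hochberg adjustment over 17837 probe sets and a threshold of 0.05.

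Genes were read at their most intense probe set that names 1 gene. Genes named are the 15 largest rises and 15 largest falls whose groups do not overlap, up to 4 passing members per list and its most intense member, and every tested member of the meristem, polarity and flowering lists. The gene lists and their members were chosen with earlier results of these data known. Sequences were not analysed here. Alternatives covered scaling, pseudocount, filter, variance model, a replicate block and leaving out each array.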

Additional observations from a re-analysis of the deposited data

How the results depend on the processing

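The direction of every call among the 208 named genes held under all 20 alternatives. Of the 172 that passed, 111 kept their call under every one, and 36 did not pass, of which 17 passed under some alternative. With array medians as deposited 3803 probe sets were higher and 2207 lower, and with 1 probe set per named gene 1083 were higher and 2104 lower of 9870. Without 1 array at a time, the count higher ran from 1049 (without ML_35DAS replicate 1) to 2860 (without Apex_5DAS replicate 2), and the count lower from 1752 to 3691, in the same fits. Without ML_35DAS replicate 2 they were 1108 and 2072. Among the named genes, 52 and 46 calls were lost without the first or second mature leaf array, 16 and 18 without the first or second younger apex array, and 19 each with array medians as deposited and with quantile normalization. With a replicate block the counts were 2208 higher and 3876 lower. The labels do not say whether the replicate numbers pair the arrays. The differences between replicates 1 and 2 correlated at r = 0.056 between mature leaves and younger apices. This value cannot decide the question, since younger apex replicate 1 stood apart. The other settings stayed within 1.5 times of the main counts. Intensities near the pseudocount of 7.70 give changes whose size depends on it, and with 2 arrays a tissue 1 array can end a call.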
